A study of Mus musculus with 6 samples.

Results

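The Groucho/TLE genes Tle1, Tle2, Tle3, Tle4 and Tle6 were examined in definitive endoderm with and without the transcription factor OTX2, by the accessibility of the chromatin assigned to them. Members were the rows of the authors' deposited table of ATAC-seq peaks whose nearby gene is 1 of these 5 symbols. This gave 39 of 70494 peaks, of which 18 belonged to Tle3, 11 to Tle4, 4 to Tle1, 3 to Tle2 and 3 to Tle6. TLE proteins do not bind DNA themselves. DNA-binding repressors recruit them through short peptide motifs, and TLE tetramers then silence the target gene, in part with histone deacetylases. OTX2, HESX1 and GSC, homeodomain factors of the anterior endoderm and head organizer, are among the factors known to work with them, as are the TCF/LEF effectors of WNT signalling and the HES effectors of NOTCH signalling.

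The cells were endoderm differentiated from mouse epiblast stem cells of the line 7H OTX2-dTAG-EGFP, on a BL6/129 hybrid background. All 6 libraries, controls included, carry OTX2 fused to the degradation tag and EGFP. The cells received 40 ng/ml Activin A with 3 uM CHIR for 16 h, then 100 ng/ml Activin A with 100 nM LDN for 24 h. In 3 libraries dTAG13, which causes the tagged OTX2 to be degraded, was given at the primitive streak and left on for 24 h. The other 3 libraries received the vehicle DMSO for the same time, and all came from this 1 line. The series' design describes the 3 libraries of a group as technical replicates, from 50000 sorted live cells each, so that errors need not cover the spread between cultures. Of 12 endoderm genes such as Sox17, Foxa2 and Cer1, 11 had a peak within 1000 bases of a start site and Cldn6 had none, whereas 3 of 6 mesoderm, 3 of 3 neural, 2 of 3 pluripotency and 0 of 3 blood genes did. A promoter peak of the pluripotency gene Pou5f1 was lower without OTX2 in the authors' deposited table (mean normalized counts, implied from that table, of 37.6 in DMSO and 4.72 in dTAG13, log2 fold change -2.99, SE 0.52, adjusted p 1.8e-05). That of the neural gene Sox1 was higher in the authors' deposited table (9.05 to 24.6, log2 fold change 1.44, SE 0.44, adjusted p 0.0299). No promoter peak of the endoderm or mesoderm genes was called. Open promoters do not show expression, and the part of other cell types in the Tle values was not tested.

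The table gives 1 mean normalized count per peak over the 6 libraries and 1 log2 fold change with its standard error (SE), not values per library. Group means were therefore implied from the mean and the fold change. These implied means fell on regular steps at low values, with a gap between 0.147, the highest value at 0 reads in DMSO, and 0.280, the lowest above it. From the steps, 1 read in a group added about 0.263 to the DMSO mean and 0.396 to the dTAG13 mean, a ratio of 1.50. Reads given below are approximate totals over the 3 libraries of a group derived this way. The normalization thus gave a DMSO read less weight. Total depth is unknown and need not differ in the same way. The part of this difference in weight in peaks found in 1 group alone was not tested.

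Of the 37 Tle peaks with an adjusted p in the authors' deposited table, 3 were called at an adjusted p under 0.05, against 5.26% of all peaks tested. That is 8.11% of the Tle peaks, a share near the background. A peak downstream of Tle3 was lower without OTX2, against a background of 3.79% lower calls, and a second Tle3 peak and a peak inside Tle1 were higher, against 1.47%. Requiring also a log2 fold change of at least 1 in either direction kept 3 Tle calls, against 5.04% of all tested peaks. At an adjusted p under 0.1 the Tle calls numbered 5, against 9.1% of all peaks. With fold changes centred within deciles of GC content, 5 were called at 0.05, against 5.26% of all peaks under the same centring. Of these 1 was lower and 4 were higher, against 1.99% and 3.27% of all. With the median of all peaks at 0, 4 were called, 1 lower and 3 higher, against 5.81% of all peaks, 2.97% lower and 2.83% higher. Distances are given from the first RefSeq start site of each gene, positive in the direction of transcription. The sequences of the called peaks are shown because they carry the regions that changed. The first is the central part of its peak and the others are whole, all from the plus strand of GRCm38.p6, the assembly of mm10. Capitals mark TAAT or its reverse complement ATTA, the core that homeodomain factors share. This core was chosen after the sequence of the first peak had been seen.

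Tle3 at 96.3 kb, chr9:61468499-61468798: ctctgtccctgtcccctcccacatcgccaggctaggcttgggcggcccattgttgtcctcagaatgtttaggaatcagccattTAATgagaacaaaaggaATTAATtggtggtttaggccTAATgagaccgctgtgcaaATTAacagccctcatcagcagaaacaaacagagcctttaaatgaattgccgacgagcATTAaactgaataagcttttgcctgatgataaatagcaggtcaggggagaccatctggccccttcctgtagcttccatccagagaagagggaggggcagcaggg

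Tle3 at 225.1 kb, chr9:61597403-61597573: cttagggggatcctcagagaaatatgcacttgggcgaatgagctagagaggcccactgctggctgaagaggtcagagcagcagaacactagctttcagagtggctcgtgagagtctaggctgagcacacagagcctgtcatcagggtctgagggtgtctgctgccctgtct

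Tle1 at 78.4 kb, chr4:72122465-72122540: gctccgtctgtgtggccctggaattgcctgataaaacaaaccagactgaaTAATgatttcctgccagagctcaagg

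The peak 96.3 kb downstream of the Tle3 start site held 6 TAAT cores within 100 bases of its midpoint. That many were found in 492 of 70494 peaks (0.698%), in 91 of the peaks called lower without OTX2 (3.47%) and in 1 other Tle peak, 89.2 kb inside Tle4, which held 7. The peak at 225.1 kb held none and the one in Tle1 held 2 in the same 200-base window, of which 1 lies in the peak itself, a number that 23.6% of all peaks reached. The count depends on base composition, and the Tle3 peak at 96.3 kb had a GC content of 50.8%, against a median of 54.8% over all peaks. None of the 3 called peaks had the OTX consensus GGATTA within 100 bases of the midpoint on either strand, which overlaps the TAAT core on the opposite strand. Of all peaks called lower 34.1% had it, and of those called higher 1.28%. Within 250 bases 1 of the 3 called Tle peaks had it, against 45.3% of all peaks called lower and 7.78% of those called higher.

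**Figure D1:**
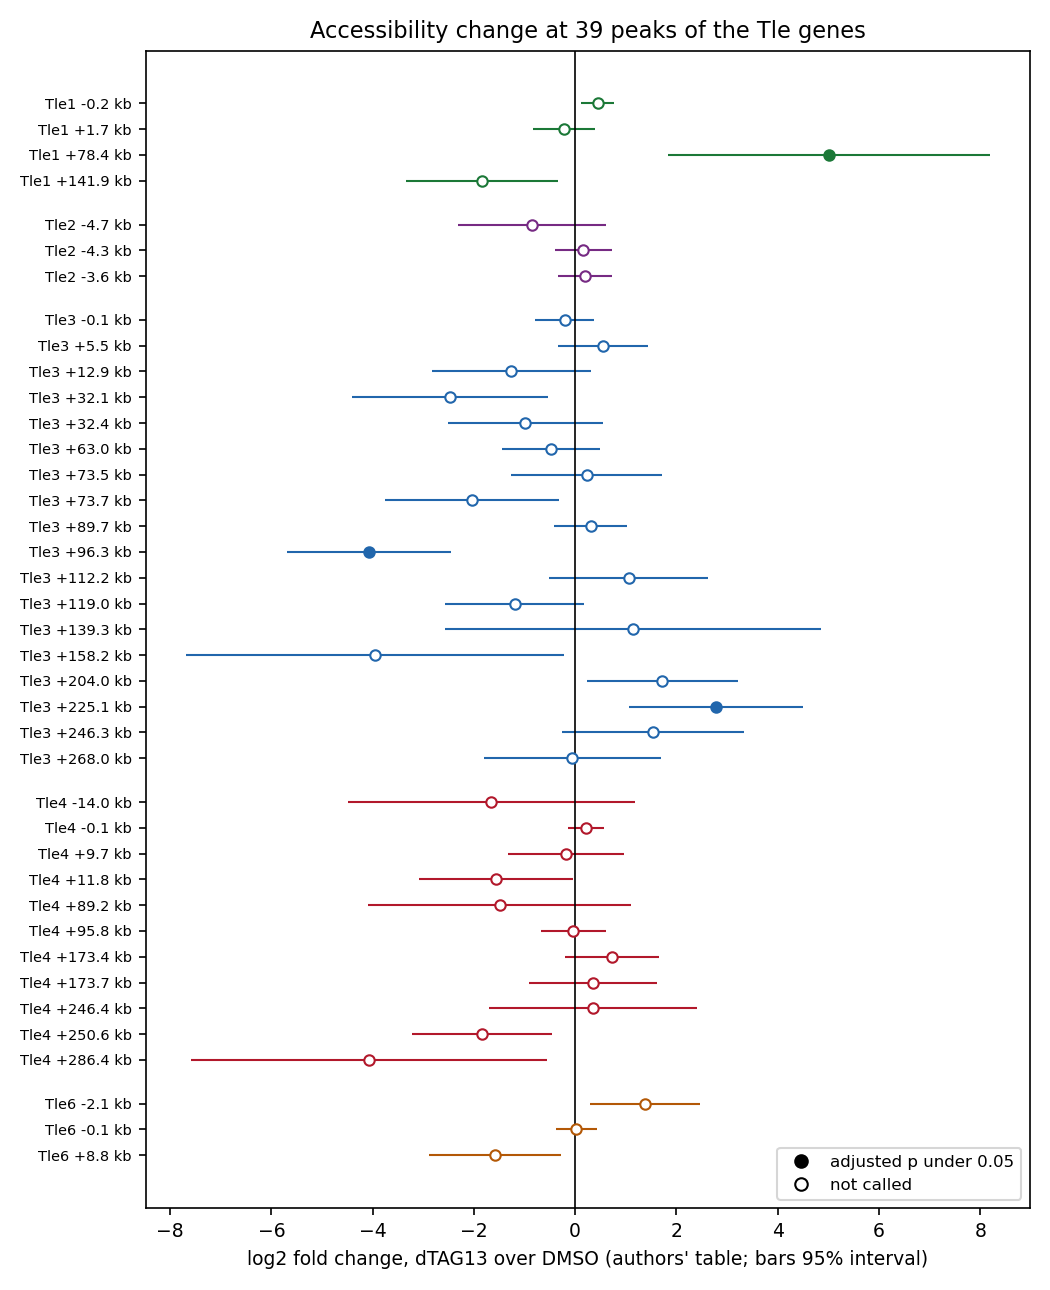
Log2 fold change of dTAG13 over DMSO for the 39 peaks of the 5 Tle genes (x axis), with 95% intervals from the authors' SE and each peak named by its distance from the gene's start site (y axis). Filled points mark the 3 called peaks, and the strong peaks at the start sites lie close to 0 with narrow intervals.

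Tle3 encodes a full-length corepressor with the tetramerization and WD40 domains of the family. The gene spans 46.1 kb of chromosome 9 (61372366 to 61418497, plus strand), and 13 of its 18 peaks lay downstream of it in intergenic sequence. All 13 were nearer to the start site of a noncoding gene, such as Gm47240 or Gm34424, although Tle3 was the nearest protein-coding gene. Which gene they act on was not tested. Only 60 of 26796 genes in the table had 18 or more peaks, and the median was 2. The peak at 96.3 kb (chromosome 9, 61468464 to 61468833, 370 bases) had an implied mean of 26.2 normalized counts in DMSO and 1.56 in dTAG13, or about 100 reads against 4. It was found in the DMSO peak list alone. Its log2 fold change in the authors' deposited table was -4.07 (SE 0.83, adjusted p 0.000289), a 16.8-fold lower fitted signal without OTX2.

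The peak at 225.1 kb (chromosome 9, 61597403 to 61597573) showed the opposite pattern. Its implied mean was 1.68 normalized counts in DMSO and 11.6 in dTAG13, about 6 reads against 29, and it was found in the dTAG13 list alone. Its log2 fold change in the authors' deposited table was 2.79 (SE 0.88, adjusted p 0.0361), with a 95% interval from 1.07 to 4.51. The called Tle3 peaks thus differed in direction, and the lower one rested on the larger number of reads.

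Between the start site and the called peak at 96.3 kb, 8 further Tle3 peaks covered the gene and its downstream flank. None of these passed the threshold. The most negative lay in intron 7 of 19 at 32.1 kb, with implied means of 8.54 and 1.54, about 33 reads in DMSO and 4 in dTAG13. It had a log2 fold change of -2.47 in the authors' deposited table (SE 0.99, adjusted p 0.120). A neighbour 73.7 kb downstream had -2.03 in the authors' deposited table (SE 0.88, adjusted p 0.156), and the peak at 89.7 kb, which held more reads, 0.31 (SE 0.37). In this stretch values of both signs stood side by side, also at neighbouring peaks: 73.5 kb from the start site the value in the authors' deposited table was 0.23 (SE 0.76).

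Beyond 130 kb, a boundary set after the values were seen, Tle3 had 6 peaks, all weak, with mean normalized counts of 1.65 to 6.64. Of these, 4 were in the dTAG13 list alone, 1 in both lists and 1 in the DMSO list alone, where all peaks had 11.8%, 48.2% and 40.1%. With the boundary chosen on these values, the split is a description. Their implied means summed to 18.99 in DMSO and 41.1 in dTAG13, while the 7 downstream peaks nearer the gene summed to 94.99 and 61.98. Only 1 peak of each stretch was called. The 1 peak of the DMSO list, at 158.2 kb, had about 12 reads in DMSO and 0 in dTAG13. With the 0 reads set to a floor of 3 reads over the group, this is 2.62-fold. That value leaves out the error of the 12 reads, and the 95% interval of the log2 fold change ran from -7.68 to -0.21. The peak was too weak for an adjusted p.

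**Figure D2:**
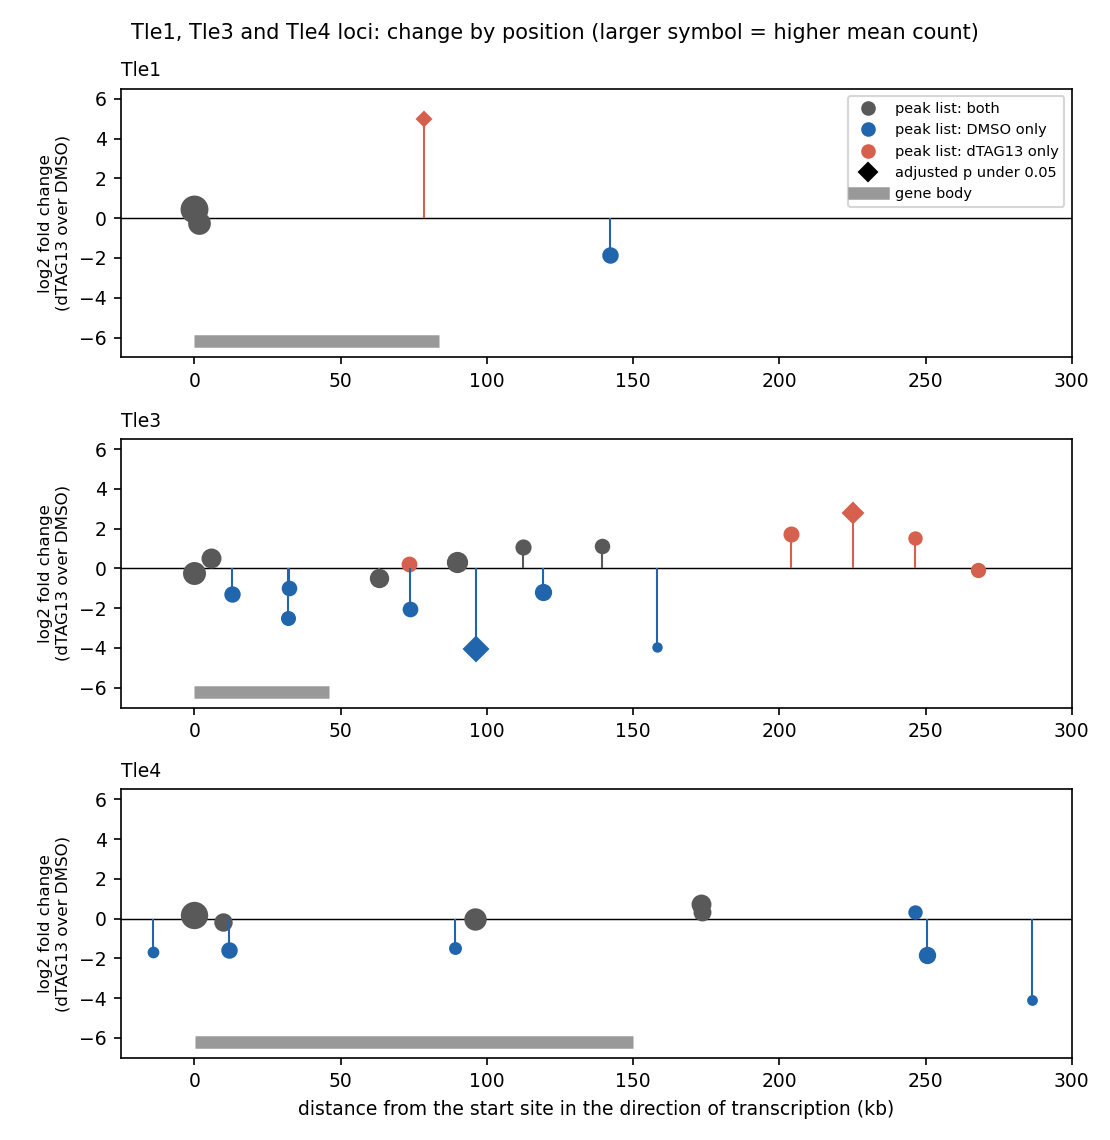
Log2 fold change (y axis) of each peak of Tle1, Tle3 and Tle4 by its distance in kb from the start site (x axis), with symbols growing with the mean normalized count and coloured by the pooled peak list. Diamonds are the called peaks. At Tle3 the DMSO-only peaks lie within 158.2 kb of the start site and 4 of the 5 dTAG13-only peaks at 204.0 kb or farther.

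Tle1 encodes the family's best studied full-length member and lies on the minus strand of chromosome 4 (72117142 to 72200919). Its peaks were few, and 1 of the 4 was called. The called peak, 78.4 kb into the gene (chromosome 4, 72122465 to 72122540), had its midpoint in intron 16 of 19 and shared 27 bases with an exon. The authors' annotation places it at a promoter, and the nearest Tle1 start site, that of a short noncoding transcript, was 1769 bases away. About 0 reads in DMSO and 12 in dTAG13 lay behind it, so the signal without OTX2 was at least 5.87-fold higher against the floor of 3 reads over the group. The log2 fold change in the authors' deposited table was 5.01 (SE 1.62, adjusted p 0.0427), which depends on how a group at 0 is fitted. With a mean normalized count of 2.39, the peak was no longer tested when weak peaks under 5 were left out.

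The Tle1 start site carried the strongest peak of the family (chromosome 4, 72200815 to 72201294), with implied means of 95.9 normalized counts in DMSO and 130.3 in dTAG13. Its log2 fold change in the authors' deposited table was 0.44 (SE 0.17, adjusted p 0.0975), with an interval from 0.11 to 0.77. It passed the threshold, with an adjusted p of 0.0113, when the median of all peaks, -0.18, was moved to 0. The second Tle1 start-site peak, 1.7 kb into the gene, had -0.22 in the authors' deposited table (SE 0.32). Downstream of the gene, at 141.9 kb, the implied means were 11.3 in DMSO and 3.13 in dTAG13, with a log2 fold change of -1.85 in the authors' deposited table (SE 0.77, adjusted p 0.135). The peaks of Tle1 therefore did not share a direction.

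Tle4 encodes the full-length family member also known as Grg4 in the mouse. The gene spans 149.9 kb of the minus strand of chromosome 19 (14448150 to 14598051), and none of its 10 tested peaks was called as deposited. With GC deciles centred, the peak 173.4 kb downstream was called (1.63, SE 0.47, adjusted p 0.0197), from 0.73 in the authors' deposited table, with implied means of 12.4 in DMSO and 20.4 in dTAG13. At the start site (chromosome 19, 14598015 to 14598598) the implied means were 92.4 normalized counts in DMSO and 106.6 in dTAG13. The log2 fold change in the authors' deposited table was 0.21 (SE 0.18, adjusted p 0.563), with an interval from -0.15 to 0.56. The intronic peak 95.8 kb into the gene, with implied means of 30.3 and 29.6, had -0.04 in the authors' deposited table (SE 0.33). Neither open region passed the threshold.

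The Tle4 peak with the smallest adjusted p lay 250.6 kb downstream of the start site (chromosome 19, 14347534 to 14347689). It had about 53 reads in DMSO and 10 in dTAG13 and a log2 fold change of -1.84 in the authors' deposited table (SE 0.70, adjusted p 0.0984). A peak in intron 4 of 19, 11.8 kb into the gene, had -1.56 in the authors' deposited table (SE 0.77, adjusted p 0.239). None of the Tle4 peaks was found in the dTAG13 list alone, and 6 of 11 were in the DMSO list alone, against 11.8% and 40.1% of all peaks. The farthest, at 286.4 kb, had about 13 reads in DMSO and 0 in dTAG13, at least 2.88-fold against the same floor, with no adjusted p.

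Tle2 and Tle6 are neighbours on chromosome 10, transcribed towards each other, and the short family member Aes, which lacks the WD40 domain, lies just upstream of Tle2. No peak of the table and none of either peak list lay in the body of Tle2 (81574561 to 81590845). The 3 peaks assigned to Tle2 lay 3.6 to 4.7 kb upstream, between Aes and Tle2. The stronger ones had implied means of 51.8 in DMSO and 59.5 in dTAG13 (chromosome 10, 81571602 to 81571835) and of 38.9 and 43.5 (81570832 to 81571090). The authors' deposited table gives log2 fold changes of 0.20 (SE 0.27) for the first and of 0.16 (SE 0.29) for the second, each smaller than its SE.

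TLE6 is a shorter, divergent member, best known from the maternal protein complex of the oocyte. Its start-site peak (chromosome 10, 81600759 to 81601248) was level between the groups, with implied means of 73.2 in DMSO and 74.5 in dTAG13. The log2 fold change in the authors' deposited table was 0.03 (SE 0.21, adjusted p 0.963), with an interval from -0.38 to 0.44. The other two Tle6 peaks leaned in opposite directions: 2.1 kb upstream the implied means were 6.36 in DMSO and 16.6 in dTAG13, and 8.8 kb into the gene 12.8 and 4.27. The authors' deposited table gives the former 1.38 on the log2 scale (SE 0.56, adjusted p 0.122) and the latter -1.58 (SE 0.67, adjusted p 0.144). The upstream peak passed the threshold (adjusted p 0.0151) when fold changes were centred within deciles of GC content.

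**Figure D3:**
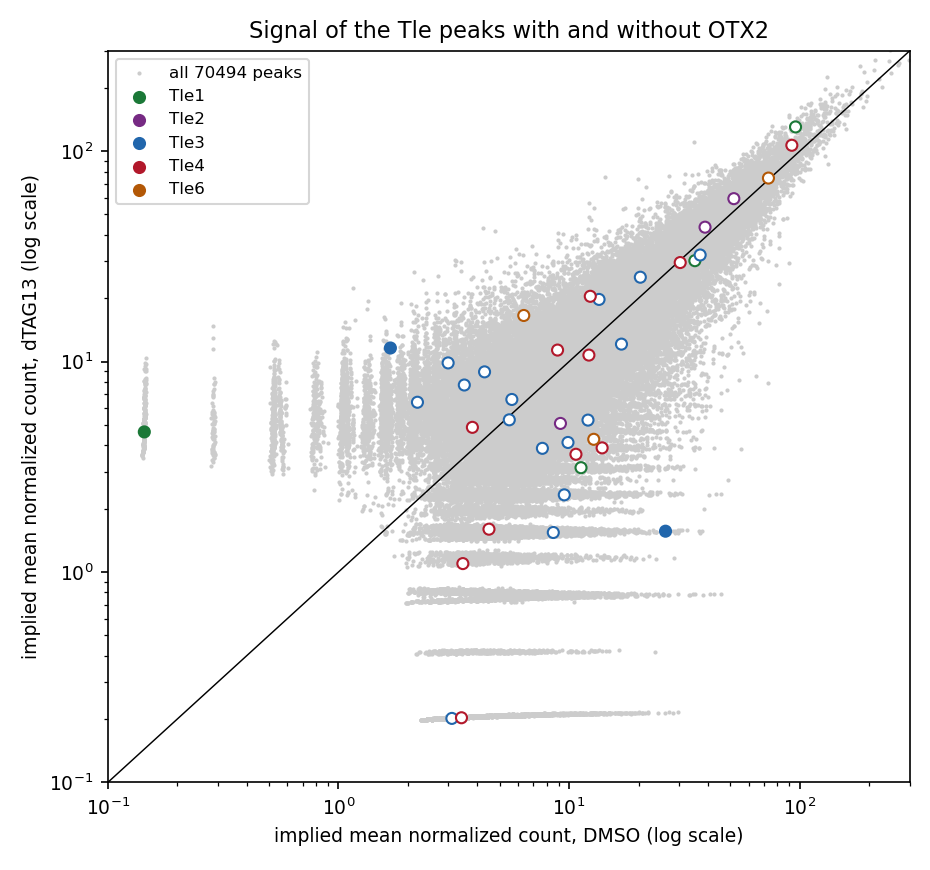
Implied mean normalized count in DMSO (x axis) and dTAG13 (y axis), both on log scales, for all peaks within the plotted range (grey) and the Tle peaks (coloured by gene, filled where called). Grey stripes at low values are whole numbers of reads, the lowest being 0 reads, and the 5 strongest Tle start-site peaks lie near the line of equal signal, the Tle6 peak 8.8 kb into the gene (12.8 and 4.27) below it.

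Taking the start sites together, 6 Tle peaks lay within 1000 bases of a start site of their gene, at Tle1, Tle3, Tle4 and Tle6, and 0 of 6 were called in the authors' deposited table. Over all peaks annotated within 1 kb of a start site, 2.15% were called. An unadjusted p under 0.05 was given for 2 of the 6, the peak at the first Tle1 start site and the Tle6 peak 8.8 kb into the gene. Over all peaks annotated within 1 kb of a start site it was given for 2714 of 21639, a difference that was not tested. At Tle3 the start-site peak (chromosome 9, 61372201 to 61372419) had implied means of 37.0 in DMSO and 32.1 in dTAG13. Its log2 fold change in the authors' deposited table was -0.21 (SE 0.30, adjusted p 0.753), with an interval from -0.79 to 0.38.

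The promoters of Tle3, Tle4 and Tle6 are shown because the sequences share an element, 1 of 10 motifs searched. Their start-site peaks were open in both groups, as was that of Tle1. All 5 genes matched the RefSeq promoter table of GRCm38.p6, which holds 250 bases before and 50 after each start site, and the first entry of each gene is used, in the gene's own orientation. Capitals mark CACGTG, an E-box that several basic helix-loop-helix factors recognise and that reads the same on both strands.

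Tle3 promoter, chr9:61372116-61372415, plus strand: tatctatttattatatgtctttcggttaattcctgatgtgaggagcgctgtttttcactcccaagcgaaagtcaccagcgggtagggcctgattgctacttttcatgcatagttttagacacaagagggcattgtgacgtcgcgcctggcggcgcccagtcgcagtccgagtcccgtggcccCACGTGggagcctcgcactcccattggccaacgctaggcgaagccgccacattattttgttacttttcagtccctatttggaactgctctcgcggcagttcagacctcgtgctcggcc

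Tle4 promoter, chr19:14598134-14598433, minus strand: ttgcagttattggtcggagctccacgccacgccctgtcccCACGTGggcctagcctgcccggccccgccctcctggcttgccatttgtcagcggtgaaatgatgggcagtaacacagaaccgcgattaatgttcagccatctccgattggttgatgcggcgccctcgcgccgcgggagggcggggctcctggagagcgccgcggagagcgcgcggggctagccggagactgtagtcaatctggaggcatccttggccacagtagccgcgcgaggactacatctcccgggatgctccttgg

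Tle6 promoter, chr10:81600851-81601150, minus strand: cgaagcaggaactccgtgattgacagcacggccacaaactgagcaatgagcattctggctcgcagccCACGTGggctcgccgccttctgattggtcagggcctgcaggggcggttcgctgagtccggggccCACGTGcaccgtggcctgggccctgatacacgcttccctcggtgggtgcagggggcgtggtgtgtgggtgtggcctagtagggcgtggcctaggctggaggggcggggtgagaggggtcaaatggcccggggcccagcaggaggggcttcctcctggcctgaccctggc

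The E-box occurred once in the Tle3 and Tle4 promoters and at 2 positions in that of Tle6, and was not found in those of Tle1 and Tle2. Of 32851 RefSeq promoters of the same length, 2349 (7.15%) held it, a difference that was not tested. The promoters of the 5 genes were without the OTX consensus, which 7.06% of all promoters held. In the authors' deposited table no member peak with this E-box was called, and the log2 fold changes of the 3 start-site peaks ran from -0.21 to 0.21.

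Weak peaks, most of them away from start sites, carried the spread. The median log2 fold change of all 39 Tle peaks in the authors' deposited table was -0.06, with quartiles at -1.53 and 0.40, against -0.18 (quartiles -1.01 and 0.39) over all 70494 peaks. The sign of the Tle median depended on the centring: it was 0.12 with the median of all peaks at 0 and 0.11 with GC deciles centred. Over the 78 peaks whose nearest protein-coding start site is that of a Tle gene, it was -0.80. The 7 strong Tle peaks, whose mean normalized count was 30 or more, ranged from -0.22 to 0.44 in the authors' deposited table, with SE of at most 0.32. The 32 weaker ones ranged from -4.07 to 5.01, with a median SE of 0.78. Negative values were given for 21 Tle peaks and positive for 18. An unadjusted p under 0.05 was given for 14 of 39 Tle peaks, 9 lower and 5 higher, against a background of 19.7% of all peaks, a difference that was not tested. Summed over the family, the implied means came to 721.3 in DMSO and 730.1 in dTAG13.

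The pooled peak lists gave a similar picture of strong shared and weak unshared regions. Of the Tle peaks, 16 (41.03%) overlapped peaks of both lists, 16 the DMSO list alone and 7 (17.9%) the dTAG13 list alone, against 48.2%, 40.1% and 11.8% of all peaks. Of the 18 tested Tle peaks annotated as distal intergenic, 2 (11.1%) were called, against 6.78% of all such peaks. The 7 strongest Tle peaks, with a mean normalized count of 30 or more, were all in both lists, as were 99.8% of all peaks that strong. The 4 classes in which the authors mark their enriched peaks, numbered 1 to 4 and of unstated meaning, put the Tle3 peak at 96.3 kb in class 1 and the other two called peaks in class 3. With 1 list per group there is no replicate error, and the groups differ in the weight of a read as given above.

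**Figure D4:**
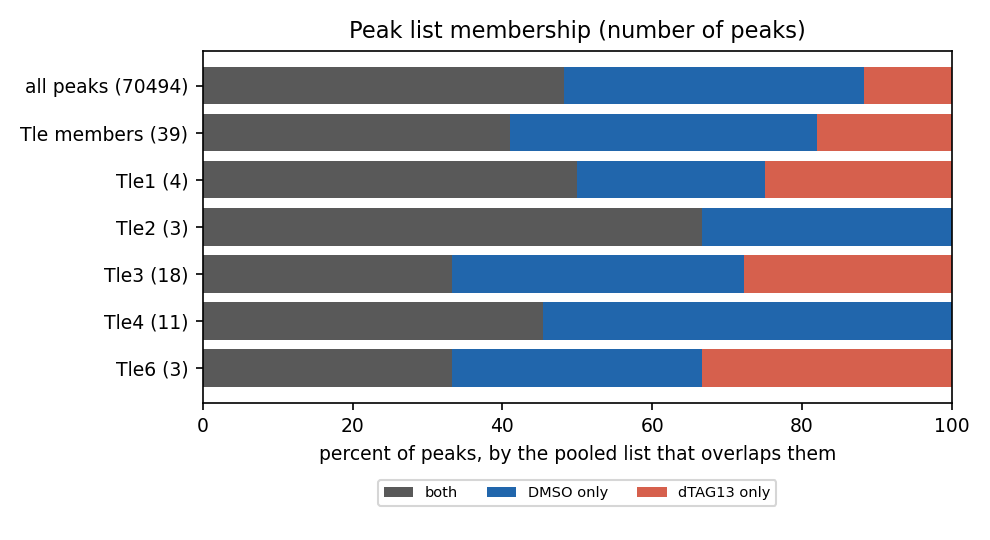
Percent of peaks (x axis) that overlap the pooled peak list of both groups, of DMSO alone or of dTAG13 alone, for all peaks, the 39 Tle peaks and each gene (number of peaks in brackets). Tle4 and Tle2 had 0 peaks in the dTAG13 list alone, Tle3 had 5 of 18.

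The OTX consensus GGATTA, searched on both strands within 100 bases of the midpoint, occurred in 6 of 39 Tle peaks (15.4%) and in 8.81% of all peaks. Its reversed form ATTAGG, a control of the same composition, occurred in 9 Tle peaks (23.1%) and 7.06% of all. As it keeps the ATTA core, it is a control for composition only. It was found in 16.0% of all peaks called lower and 5.61% of those called higher. The Tle peaks with the consensus were 4 at Tle3, 1 at Tle1 and 1 at Tle4. At the Tle1 peak the consensus lay outside the peak, in its flank, and the other 5 peaks held it within their bounds. None of the 6 was called, against 907 of the 6209 peaks with the consensus over the whole table. The log2 fold change was negative for 5 of the 6 in the authors' deposited table, with a median of -1.38. Over the whole table the 6209 peaks with the consensus had a median of -1.32, with 82.7% negative, and the 64285 without it -0.12. The Tle peaks without it had a median of 0.03 in the authors' deposited table. The windows of the consensus peaks with the most negative values are shown, 200 bases on the plus strand with the consensus or its reverse complement TAATCC in capitals.

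Tle3 at 73.7 kb, chr9:61445971-61446170: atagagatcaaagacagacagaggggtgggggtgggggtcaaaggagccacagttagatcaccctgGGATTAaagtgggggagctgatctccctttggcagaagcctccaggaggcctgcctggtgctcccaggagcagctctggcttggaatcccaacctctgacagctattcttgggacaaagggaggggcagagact

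Tle1 at 141.9 kb, chr4:72058858-72059057: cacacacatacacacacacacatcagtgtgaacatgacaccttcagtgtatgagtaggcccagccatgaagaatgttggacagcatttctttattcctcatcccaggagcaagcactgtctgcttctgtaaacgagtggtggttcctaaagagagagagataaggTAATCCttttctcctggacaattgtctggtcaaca

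The authors' deposited table gives the Tle3 peak -2.03 (SE 0.88, unadjusted p 0.0207) and the Tle1 peak -1.85 (SE 0.77, unadjusted p 0.0158). Neither passed after adjustment, at 0.156 and 0.135. The exception in sign was the Tle3 peak at 89.7 kb, the strongest of the 6, with implied means of 20.4 in DMSO and 25.2 in dTAG13. Of the other motifs, searched the same way, the Tle peaks held GGATTT, a second bicoid-type site, in 1 case (8.92% of all peaks), CTTTGA of TCF/LEF in 6 (12.1%), AGATAA of GATA factors in 5 (15.6%) and ACAAAG of SOX factors in 7 (16.4%). TGTTTAC of FOX factors was found in 4 (5.33%), GGAATG of TEAD factors in 3 (11.5%) and CACGTG in 4 (3.77%), while the POU octamer ATGCAAAT was found in 2 (1.21%). A match describes the letters only.

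The table also marks genes as down or up in an experiment that it does not describe. Tle4 and Tle6 were marked as down, among 370 of 26796 genes (1.38%) with this mark. Tle1, Tle2 and Tle3 had neither mark. The peaks at their first start sites had log2 fold changes of 0.21 (Tle4) and 0.03 (Tle6) in the authors' deposited table. The Tle6 peak 8.8 kb into the gene, within 1000 bases of another Tle6 start site, had -1.58 there (SE 0.67, adjusted p 0.144). No peak of either gene was called as deposited.

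Other genes of the Groucho system were taken from a list of 33 symbols of DNA-binding partners and 13 of modulators. Aes and Tle5 on this list are symbols of the same gene. Of all the listed symbols, 44 had peaks. The authors' deposited table calls 9 (5.00%) of their 180 tested peaks, 7 of them lower and 2 higher, again near the background of 5.26%. With GC deciles centred the calls split into 6 lower and 4 higher, against the 1.99% and 3.27% of all peaks given above. With the median of all peaks at 0 they split into 7 and 4, against 2.97% and 2.83%. Lower calls fell on 4 genes and higher calls on 2, while 38 genes with peaks had none. Hesx1, a homeobox repressor that recruits TLE1, had 2 lower peaks. The stronger change was at an intergenic peak (chromosome 14, 27005939 to 27006297), which fell from an implied mean of 45.7 in DMSO to 5.89 in dTAG13. Its log2 fold change in the authors' deposited table was -2.96 (SE 0.48, adjusted p 2.88e-06). The peak at the Hesx1 promoter also fell, from 33.4 to 6.25.

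Prdm1, which encodes the zinc finger repressor BLIMP1, had 3 lower peaks, all intronic by the authors' annotation. The strongest (chromosome 10, 44464189 to 44464829) went from 60.1 to 17.2, with a log2 fold change of -1.80 in the authors' deposited table (SE 0.35, adjusted p 0.000134). Tcf7l2, a TCF/LEF effector, had 1 lower intergenic peak (chromosome 19, 55732656 to 55732880), with -2.10 in the authors' deposited table (SE 0.55, adjusted p 0.00898). Tbl1xr1, a component of nuclear corepressor complexes, had 1 lower intronic peak with -3.26 in the authors' deposited table (SE 0.92, adjusted p 0.0158) and about 57 reads against 4. Higher without OTX2 were an intergenic peak of the homeobox gene Msx1, with 2.40 in the authors' deposited table (SE 0.72, adjusted p 0.0252), and a peak in intron 2 of the kinase gene Hipk2. The Hipk2 peak had about 0 reads in DMSO and 25 in dTAG13. With the 0 reads set to the floor it was 12.4-fold higher, without the error of the 25 reads. Its log2 fold change in the authors' deposited table was 6.06 (SE 1.39, adjusted p 0.00209). No peak of Gsc, Hhex, Hes1, Lef1 or Tcf7l1 was called, and the HDAC genes Hdac1 and Hdac2 had none either.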

How the data were processed

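ATAC-seq of 3 DMSO and 3 dTAG13 libraries had been processed by the authors. The submitters' processing notes name fastp, Bowtie2, MACS2, featureCounts, HOMER 4.11 and ChIPseeker on build mm10; their settings are not given in the sources used here. The signal deposited by the authors is a mean normalized count per peak with the column names of DESeq2. The deposited log2 fold change divided by its SE gives the deposited score within 8.72e-07, the deposited p-value is the two-sided normal p of that score, and the adjusted p-value is its Benjamini-Hochberg adjustment over 69128 peaks (1366 weak peaks have none). Depth per library is unknown, and no test on libraries was run. The other deposited columns hold the authors' marks.

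From these values, group means were implied by assuming equal weight of both groups, and reads over a group by the step of 1 read. Intervals are 95% normal intervals from the SE and, like the floor of 3 reads over a group, rest on these libraries only. Distances and start sites came from RefSeq and GENCODE mouse release 21 on GRCm38. Lists overlapped by at least 1 base. Members, gene lists and alternatives were chosen with earlier results of these data known. Named were all called peaks, peaks within 1000 bases of a start site, and the peaks of smallest p and highest mean per gene; others were chosen after their values were seen. Functions were tested on simulated data. Python 3.11.15, numpy 2.4.6, pandas 2.3.3, scipy 1.17.1 and pysam 0.24.0 were used.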

Additional observations from a re-analysis of the deposited data

How the results depend on the processing

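The Tle3 calls at 96.3 and 225.1 kb held under all 8 settings of filter, centring and threshold, with adjusted p of 0.00017 to 0.00109 and of 0.0227 to 0.0423. The Tle1 call held under 7 (adjusted p 0.0239 to 0.0456). The settings include the calls as deposited. The looser threshold of 0.1 and the required log2 fold change of 1 could not remove these calls, so only the filters and centrings could. Of the Tle peaks, 3 were called (1 lower, 2 higher). With a mean count of at least 5, 2 were called (1 lower, 1 higher). Of all peaks under this filter 6.29% were called, 4.38% lower and 1.92% higher. With the median of all peaks at 0, 4 were called (3 higher). With GC deciles centred, 5 were called (4 higher). These added Tle6 at -2.1 kb (1.99, adjusted p 0.0151) and Tle4 at 173.4 kb (1.63, adjusted p 0.0197). At an adjusted p under 0.1, 5 were called (2 lower), adding the Tle1 start site and Tle4 at 250.6 kb. The background at this threshold was 9.1%, with 6.28% lower and 2.82% higher. The median of all peaks was -0.18, of peaks in both lists 0.09, and of GC deciles -0.91 to 0.04. The Tle6 start-site value turned to -0.068 once the median of peaks shared by both lists was set to 0 and to -0.015 within GC deciles. By nearest annotated start site, 26 peaks remained with 1 call (0 lower, 1 higher), against 5.26% of all peaks, 3.79% lower and 1.47% higher. Fewer peaks remained since all 13 downstream Tle3 peaks lay nearer to noncoding genes such as Gm47240. By nearest protein-coding start site, an alternative chosen after seeing the data, 78 peaks had 6 calls (4 lower, 2 higher), near 5.26% (3.79% lower). The Groucho list had 9 calls (7 lower, 2 higher). With a mean count of at least 5 it had 7 (6 lower, 1 higher), against the 6.29% of all peaks given above. With either the overall median or GC deciles at 0, 4 were higher. At an adjusted p under 0.1 it had 15 calls (11 lower, 4 higher), against 6.28% lower and 2.82% higher. The OTX consensus was in 11 Tle peaks (28.2%) within 250 bases, 1 of them called, against 17.0% of all peaks. No paired analysis was possible because each peak has a single mean and a single fold change in the table, and no replicate could be left out for the same reason. The causes of these differences were not tested, except that filters and gene assignments change which peaks are counted.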

Other observations

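Assigning peaks to the nearest protein-coding start site, an alternative chosen after seeing the data, added 3 lower calls, for 4 lower among 78 peaks, a share near the 3.79% of all tested peaks called lower. Upstream of Tle3, 2 peaks that the authors assign to Gm10655 were lower without OTX2. The first (chromosome 9, 61186889 to 61187382), 185230 bases from the nearest Tle3 start site, was open in both groups, with implied means of 68.8 in DMSO and 36.4 in dTAG13 and a log2 fold change of -0.92 in the authors' deposited table (SE 0.26, adjusted p 0.0143). The second (61165090 to 61165220) held the OTX consensus and had about 43 reads in DMSO and 4 in dTAG13, with -2.85 in the authors' deposited table (SE 0.94, adjusted p 0.0488). Upstream of Tle4, a peak assigned to Gm26026 (chromosome 19, 14835643 to 14835912) had about 68 reads in DMSO and 8 in dTAG13 and -2.51 in the authors' deposited table (SE 0.70, adjusted p 0.0145). Which gene these regions act on was not tested.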
